A study of Mus musculus with 10 samples.

Results

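The genes described here are 8 genes of fat-cell formation and lipid handling: Adipoq, Pparg, Cebpa, Cebpb, Lpl, Plin1, Fabp4 and Apoe. They were picked by gene symbol from the 19938 genes measured, and each of the 8 was found, with 1 probe set each. The levels come from osteoblastic lineage cells, the bone-forming cells and their precursors on the bone surface, of 5 control and 5 BA mice, with 1 mouse per array. BA mice carry the phenotype label Scl-tTA::TRE-BCR/ABL: a BCR/ABL oncogene that a doxycycline-repressible transactivator switches on. The transactivator is driven by control sequences of the Scl gene, which is known to be active in blood-forming cells. All mice were C57BL/6, and both groups came off doxycycline at 5 weeks of age and were sampled 5 to 6 weeks later, when BA mice had a myeloproliferative neoplasm. The genotype of the control mice was not given in the sources used here. Each array read amplified RNA of 500 to 2300 cells, sorted after staining with antibodies to CD45, CD31, CD51, Sca-1 and blood lineage antigens.

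Stromal cells of the marrow can become bone cells or fat cells. In fat-cell formation the early factor C/EBP-beta (Cebpb) switches on C/EBP-alpha (Cebpa) and the nuclear receptor PPAR-gamma (Pparg), which sustain each other and the genes of the mature fat cell. Adiponectin (Adipoq) is a hormone of fat cells that also marks marrow stromal cells primed to become fat. Lipoprotein lipase (Lpl) frees fatty acids from lipoproteins, the carrier protein Fabp4 binds them inside the cell, perilipin 1 (Plin1) coats the lipid droplet of mature fat cells, and apolipoprotein E (Apoe) carries lipid out of the cell and through the blood.

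Of the 8 genes, Adipoq stood furthest apart between the groups, at a level 4.39-fold lower in BA than in control cells. Lpl and Pparg averaged 2.51-fold and 1.46-fold lower, with intervals that included no difference, and the other 5 genes averaged within 1.17-fold of each other in the 2 groups. With limma and Benjamini-Hochberg adjustment over all genes, 0 of the 8 passed the threshold of 0.05, where 0.00502% of all genes did. At an unadjusted p under 0.05, 1 of the 8 (Adipoq) was lower and 0 were higher in BA cells, against 5.27% and 4.13% of all genes. With each array centred on its median these shares of all genes turned round, with 821 genes lower and 969 higher in place of 1051 and 824. In all, 7 of the 8 averaged lower in BA cells, as did 62.1% of all genes, and 3 of those 7 did so by less than 0.05. The median difference of the 8 was -0.13 and that of all genes -0.06 on the log2 scale. Each difference is the BA mean less the control mean in log2 units, and is given with their standard error or 95% interval.

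The stretch of 250 bases before the transcription start is shown for 4 of the genes, in lower case from 5′ to 3′ along the gene, from RefSeq (GRCm38.p6). Adipoq and Pparg are shown as the gene of the 8 with the largest difference and its known activator, and Cebpa and Apoe as the pair that varied together among mice. Pparg had 3 start sites and Apoe had 3; the Pparg stretch belongs to the downstream start, known as that of the fat-cell form, and the Apoe stretch to the most upstream one. Adipoq lies at chr16:23146286-23146535 (+), Pparg at chr6:115421816-115422065 (+), Cebpa at chr7:35119043-35119292 (+) and Apoe at chr7:19699189-19699438 (-). Capitals mark matches, on either strand, to CCAAT (the CCAAT box), to TTGCNNAA (a C/EBP site) or to AGGTCA (the core element that nuclear receptors bind).
Adipoq: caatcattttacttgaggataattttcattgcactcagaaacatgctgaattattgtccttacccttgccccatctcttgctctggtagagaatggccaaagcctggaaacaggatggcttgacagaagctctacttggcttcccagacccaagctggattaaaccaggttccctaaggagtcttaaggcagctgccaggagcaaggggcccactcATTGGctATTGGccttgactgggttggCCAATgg
Pparg: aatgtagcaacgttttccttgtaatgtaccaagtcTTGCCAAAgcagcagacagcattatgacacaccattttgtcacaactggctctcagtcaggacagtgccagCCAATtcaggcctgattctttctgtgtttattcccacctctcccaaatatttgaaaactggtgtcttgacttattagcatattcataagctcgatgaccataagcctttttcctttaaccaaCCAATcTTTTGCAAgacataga
Cebpa: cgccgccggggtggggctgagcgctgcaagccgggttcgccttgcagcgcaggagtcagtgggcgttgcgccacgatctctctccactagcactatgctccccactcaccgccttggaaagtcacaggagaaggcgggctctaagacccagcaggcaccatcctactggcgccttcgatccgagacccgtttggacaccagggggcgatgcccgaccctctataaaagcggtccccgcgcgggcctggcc
Apoe: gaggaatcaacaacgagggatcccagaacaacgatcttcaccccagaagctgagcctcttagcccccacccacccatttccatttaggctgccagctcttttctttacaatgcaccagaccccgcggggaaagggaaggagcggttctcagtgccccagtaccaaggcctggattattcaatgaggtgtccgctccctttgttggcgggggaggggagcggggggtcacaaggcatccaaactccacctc

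The Adipoq stretch held 3 CCAAT matches, between 34 and 3 bases before the start. The downstream Pparg stretch held 2 C/EBP matches, the nearer one 16 to 9 bases before the start, and 2 CCAAT matches. No match to any of the 3 motifs lay in the stretches of Cebpa and Apoe. The other Pparg starts each held 1 AGGTCA, the second of them with a CCAAT match as well, and Plin1 held 2 C/EBP matches. Of all 32851 stretches of this length, 33.8% held CCAAT, 14.02% AGGTCA and 9.56% TTGCNNAA. No marked matches overlap each other, and a match is a run of letters only. RefSeq stretches were at hand for 6 of the 8 genes; Lpl and Fabp4 are named only.

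**Figure D1:**
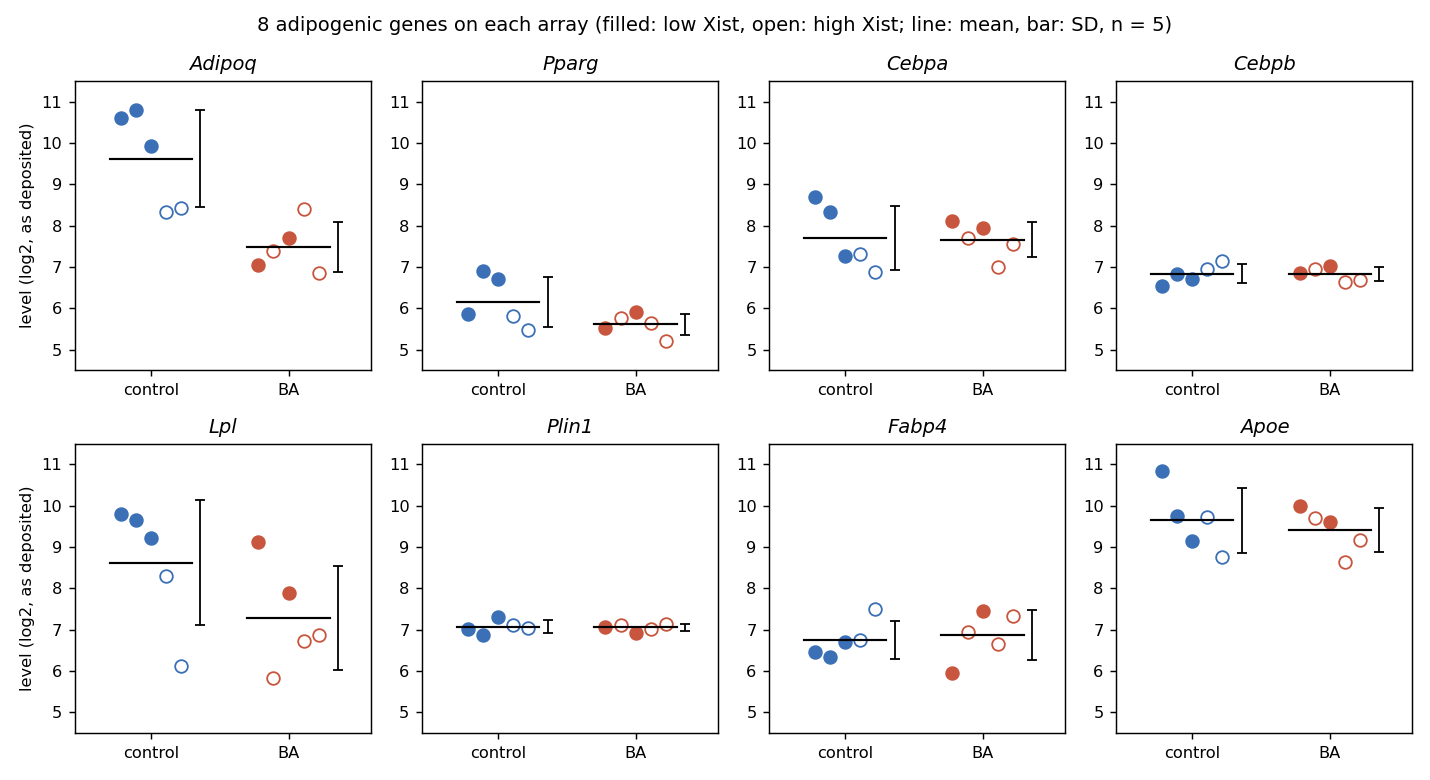
Level of each of the 8 genes on every array (y axis, log2 as deposited), with control arrays in blue and BA arrays in red, filled where Xist was low and open where it was high; the black line is the mean of 5 mice and the bar its SD. The 3 filled control arrays carry Adipoq at 9.92 to 10.81, above every other array, while Plin1 stays between 6.88 and 7.31 on all 10.

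Adipoq was measured at 10.60, 10.81, 9.92, 8.33 and 8.43 on control arrays 1 to 5. On BA arrays 1 to 5 it was measured at 7.05, 7.39, 7.71, 8.41 and 6.86. Control arrays 1 to 3 were high, and controls 4 and 5 lay close to the highest BA array, so the groups overlapped by that 1 BA array. The means were 9.62 ± 1.18 and 7.48 ± 0.61 (SD, n = 5 each). The difference of -2.13 ± 0.53 (SE) ranked 109 of all genes by p and did not pass over all genes (limma, adjusted p = 0.384, unadjusted p = 0.00215). Its 95% interval, taken without adjustment, spanned -3.30 to -0.97, a level 1.95-fold to 9.86-fold lower. Over the 19 alternatives the difference lay between -2.46 and -1.84 and the adjusted p between 0.300 and 0.711. In these bulk samples, fewer Adipoq-expressing cells and less Adipoq RNA per cell cannot be told apart.

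The genes on the list of adiponectin receptors and related proteins differed from each other in direction. Cdh13, which encodes T-cadherin, a surface protein that binds adiponectin, lay between 6.56 and 7.01 on control and between 5.71 and 6.55 on BA arrays. The groups did not overlap, as for 1 of the 5 genes on this list and 1.1% of all genes with BA lower. Cdh13 was named for its small p, which makes such a gap more likely than among all genes. Its difference was -0.71 ± 0.16 (limma, adjusted p = 0.384). Adipor2, an adiponectin receptor of the plasma membrane, lay between 5.98 and 6.81 on control and between 6.62 and 8.28 on BA arrays, a difference of 1.15 ± 0.35 (adjusted p = 0.459). Appl1, an adaptor protein of both receptors, differed by -0.36 ± 0.25. Of the 5 genes on this list 0 passed over all genes, 2 averaged lower, against 62.1% of all genes, and the median difference was 0.07.

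Among the regulators, Pparg spread more among control than among BA mice, with SDs of 0.62 and 0.26 (n = 5 each). It was measured at 5.87, 6.89, 6.71, 5.81 and 5.47 on control arrays 1 to 5 and at 5.52, 5.77, 5.90, 5.64 and 5.21 on BA arrays 1 to 5. Control arrays 2 and 3 lay above all others, and the remaining control arrays lay within the BA range or just below its top. The group means of 6.15 and 5.61 lay near the array medians of 5.91 to 6.02. With no detection call, how far Pparg lies above background signal is not known. The difference was -0.54 ± 0.27, with a 95% interval of -1.15 to 0.06 (limma, adjusted p = 0.538). With 1 array left out at a time it ran from -0.71 (without control replicate 5) to -0.36 (without control replicate 2).

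Cebpa, the C/EBP factor of late fat-cell formation, was measured at 8.70, 8.34, 7.26, 7.32 and 6.88 on control arrays 1 to 5. Its BA values were 8.10, 7.71, 7.94, 6.99 and 7.55 in the same order. Every BA array lay inside the control range, and the difference was -0.04 ± 0.36 with a 95% interval of -0.83 to 0.75 (limma, adjusted p = 0.969). Cebpb, the early factor, which also answers inflammatory signals in many cell types, ranged from 6.54 to 7.14 over control and from 6.64 to 7.03 over BA arrays. Its difference was 0.00 ± 0.13 with a 95% interval of -0.29 to 0.29 (limma, adjusted p = 0.995). The sign of both genes changed between alternatives.

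Of the lipid-handling genes, Lpl had the widest spread. It was measured at 9.79, 9.66, 9.21, 8.30 and 6.12 on control arrays 1 to 5 and at 9.13, 5.84, 7.89, 6.72 and 6.87 on BA arrays 1 to 5. Control 5 was the second-lowest array of all and BA 1 reached the level of the high controls, so the groups overlapped over most of their range. The means were 8.62 ± 1.51 and 7.29 ± 1.26 (SD, n = 5 each), a difference of -1.33 ± 0.78 with an interval of -3.05 to 0.40 (limma, adjusted p = 0.567). Its spread within groups was larger than that of 99.3% of all genes. With 1 array left out at a time the difference ran from -1.95 (without control replicate 5) to -0.96 (without BA replicate 2).

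Apoe was measured at 10.83, 9.76, 9.15, 9.72 and 8.75 on control arrays 1 to 5. The BA values were 9.99, 9.70, 9.61, 8.63 and 9.16. Control 1 was the highest array and BA 4 the lowest, and the means of 9.64 ± 0.79 and 9.42 ± 0.53 (SD, n = 5 each) differed by -0.22 ± 0.38 (limma, adjusted p = 0.823). Without control replicate 1 the sign turned, to 0.07.

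Fabp4, which macrophages and blood vessel lining also express, was measured at 6.46, 6.33, 6.69, 6.74 and 7.50 on control and at 5.96, 6.95, 7.45, 6.65 and 7.33 on BA arrays 1 to 5. It differed by 0.12 ± 0.30 (limma, adjusted p = 0.884). Its highest array, control 5, also had the highest Pecam1, a marker of vessel lining, at 6.94 against 5.46 to 5.99 elsewhere. The mean of the 12 endothelial markers was also highest there, at 5.94. Of the 3 with the smallest p, Tie1 and Tek were highest on control 5 and Flt1 was not. BA array 3, next highest in Fabp4 at 7.45, had Pecam1 at 5.61 and the lowest endothelial mean, 5.53. The part of vessel-lining cells in the Fabp4 values was not tested. Plin1 lay between 6.88 and 7.31 on control and between 6.92 and 7.13 on BA arrays. Its difference was -0.02 ± 0.10 with an interval of -0.24 to 0.20, and its spread within groups was larger than that of 8.08% of genes. With no detection call in the files, these flat Plin1 values cannot be told from background signal.

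**Figure D2:**
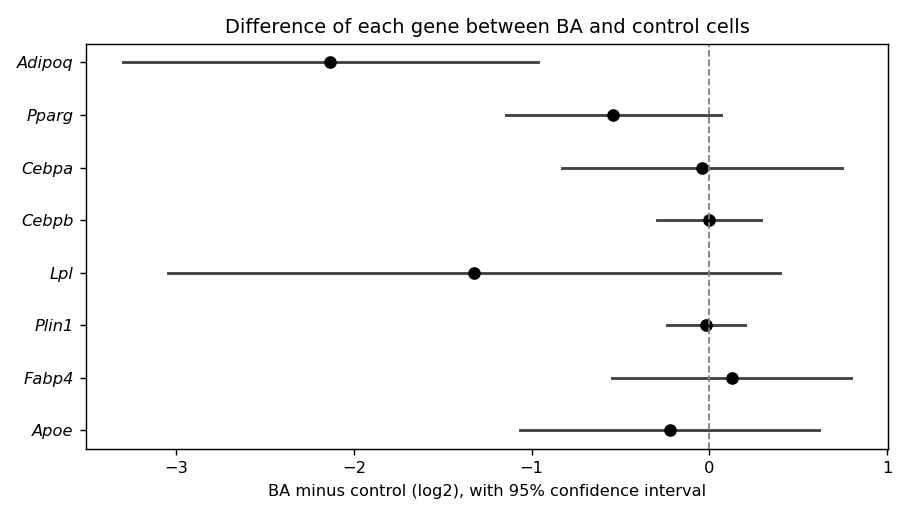
Difference of each of the 8 genes between BA and control cells (x axis, log2; point: BA minus control; line: unadjusted 95% confidence interval from limma, 5 mice per group). The interval leaves out 0 for Adipoq (-3.30 to -0.97) and includes it for the other 7 genes.

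The arrays also fell into 2 classes by Xist, a transcript made from the inactive X chromosome in female cells. Xist was low (3.85 to 5.08) on control arrays 1 to 3 and BA arrays 1 and 3, and high (9.81 to 10.70) on the other 2 control and 3 BA arrays. The labels do not give the sex of the mice. Within the low-Xist arrays Adipoq averaged 10.44 in 3 control and 7.38 in 2 BA mice, a difference of -3.06. Within the high-Xist arrays the averages were 8.38 and 7.55, a difference of -0.83. The 2 differences themselves differed by 2.24 (limma interaction term, adjusted p = 0.999, unadjusted p = 0.00711), which did not pass. For Pparg the difference was -0.78 among low-Xist mice and -0.10 among high-Xist mice, also without passing (interaction adjusted p = 0.999).

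Lpl levels are given by Xist class as a description, since the class was set against them after they had been seen. In control mice it lay between 9.21 and 9.79 on low-Xist arrays and at 8.30 and 6.12 on high-Xist arrays. In BA mice it was at 9.13 and 7.89 on low-Xist arrays and between 5.84 and 6.87 on high-Xist arrays. The classes did not overlap in either group, as for 0.938% of all genes. In a limma fit with both group and class, added after these values had been seen, low-Xist arrays were higher in Lpl by 2.19 ± 0.43 (adjusted p = 0.690, unadjusted p = 0.000549). In that fit 0.00502% of all genes passed the adjusted threshold, and 2.18% were higher on low-Xist arrays at an unadjusted p under 0.05. Lpl and Cebpa (0.80 ± 0.28, adjusted p = 0.999) were the 2 of the 8 genes among them. Apoe (0.66 ± 0.35), Adipoq (0.94 ± 0.47) and Pparg (0.51 ± 0.24) were higher by amounts that did not pass at either threshold. With class as a block, BA cells differed by -0.89 ± 0.43 in Lpl and by -1.94 ± 0.47 in Adipoq.

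To see which of the 8 genes vary together among mice of a group, each gene's group mean was subtracted and the 28 pairs were correlated over the 10 arrays. Cebpa and Apoe had the highest correlation, with Pearson's r = 0.907 (exact permutation within groups, p = 0.000417, adjusted over the pairs p = 0.0117). Spearman's rho was 0.903 (exact permutation p = 0.000208, adjusted p = 0.00583). Without control arrays 1 and 5, the 2 furthest from the median of Cebpa, r was 0.791. With the mean of each group and Xist class subtracted in place of the group mean, r was 0.904. This was the 1 pair past the threshold by either measure. Arrays that share a sort, depth of amplification or cell mix would move together in many genes, and their part in this was not tested.

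Other pairs had lower correlations. Cebpa with Lpl had r = 0.726 and rho = 0.794 (exact permutation p = 0.0246 and 0.00819, adjusted p = 0.325 and 0.115), and r was 0.561 without 2 arrays and 0.325 within Xist classes. Adipoq with Pparg had r = 0.672 and rho = 0.709 (exact permutation p = 0.130 and 0.0823, adjusted p = 0.493 and 0.395), and r was 0.443 without control arrays 4 and 5 and 0.245 within Xist classes. Lpl and Fabp4, the enzyme that releases fatty acids and a carrier that binds them, varied in opposite directions, with r = -0.709 and rho = -0.709 (exact permutation p = 0.0348 and 0.0376, adjusted p = 0.325 and 0.305). That r was -0.290 without control array 5 and BA array 1, and -0.683 within Xist classes.

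**Figure D3:**
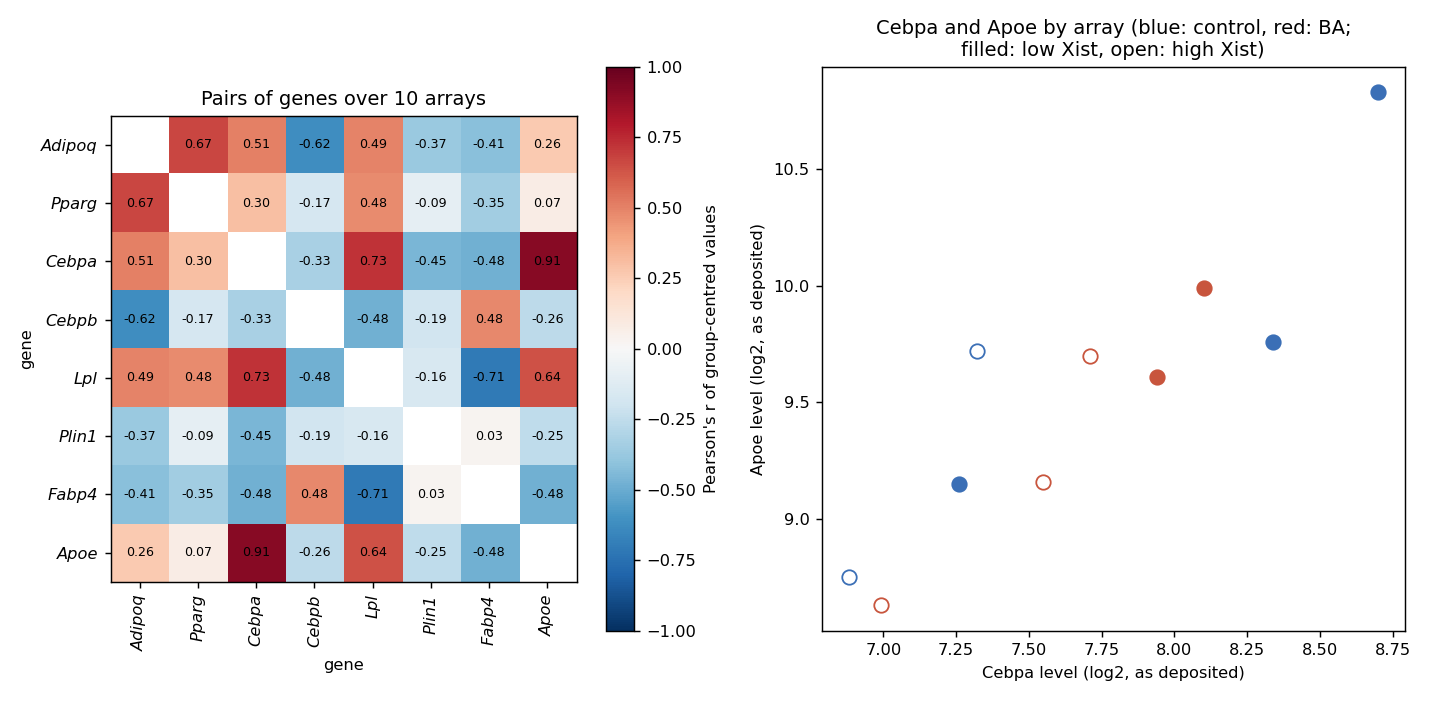
Left, Pearson's r of group-centred levels for each pair of the 8 genes over 10 arrays (colour scale from -1 to 1). Right, Apoe against Cebpa on each array (log2 as deposited; blue control, red BA; filled low Xist, open high Xist), where control 1 lies at the top right at 8.70 and 10.83 and BA 4 and control 5 at the bottom left.

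The genes whose variation within groups was most like that of Adipoq among 19937 genes were Gria3 (r = 0.971), Gsta4 (0.966), Fmo2 (0.965), Abca9 (0.942) and Gstz1 (0.938) over the 10 arrays. They were chosen by this measure, so no test is given. Gsta4 encodes a glutathione transferase and Fmo2 a flavin-containing monooxygenase. Fmo2 was measured at 10.56, 10.04, 8.25, 5.28 and 5.78 on control arrays 1 to 5 and between 4.90 and 6.55 on BA arrays. Controls 1 to 3 were again the high arrays. They were also the low-Xist control arrays, and r within Xist classes was not taken for the genes most like Adipoq. Among the 7 other genes of fat-cell formation, Pparg ranked 325 by likeness to Adipoq, Cebpa 1193, Lpl 1289 and Apoe 3786. Fabp4 (r = -0.415), Plin1 (-0.368) and Cebpb (-0.620) ran the other way.

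For 15 genes that mark the adipogenic reticular stroma of the marrow, r with Adipoq was taken by the same measure. The spread of r over all genes was not summarised, so no background is given. Nor was r taken within Xist classes, where that of Adipoq with Pparg was 0.245 in place of 0.672. The r of the 15 had a median of 0.704 and a range from -0.287 (Il7) to 0.868. Highest were 3 named after their values were seen: Kitl, which encodes the stem cell factor, ranked 27 by likeness to Adipoq (r = 0.868), Gas6, a ligand of TAM receptors, ranked 37 (r = 0.847) and Igfbp4, an IGF-binding protein, ranked 39 (r = 0.842). Between the groups, 13 of the 15 averaged lower in BA cells, against 62.1% of all genes. Their median difference was -0.82, against -0.06 for all genes. The list mean was 9.13, 9.19 and 8.48 on control arrays 1 to 3, and 7.44 and 7.37 on control arrays 4 and 5, which lay inside the BA range of 6.97 to 8.12. At an unadjusted p under 0.05, 8 were lower and 0 higher, against 5.27% and 4.13% of all genes, and 0 passed over all genes. Lepr, the leptin receptor that marks these cells, differed by -1.99 ± 0.60 (limma, adjusted p = 0.454). Agt, the angiotensinogen gene, differed by -0.72 ± 0.22 (limma, adjusted p = 0.461). Its groups did not overlap, as for 1 of the 15 and 1.1% of all genes with BA lower. Igfbp5 differed by -1.72 ± 0.59 (adjusted p = 0.482). This list was drawn up with earlier results of these samples known, so its direction is no independent evidence.

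The wider list of fat-cell transcription factors held 22 genes, of which 19 are not among the 8. Of those 19, 13 averaged lower, against 62.1% of all genes, with a median difference of -0.15. On the whole list 4 were lower and 2 higher at an unadjusted p under 0.05, against 5.27% and 4.13% of all genes. Rxra, the partner with which PPAR-gamma binds DNA, lay between 6.85 and 7.51 on control and between 6.70 and 6.86 on BA arrays, a difference of -0.45 ± 0.13 (limma, adjusted p = 0.440). Ebf1, a factor of adipogenic and B-lineage cells, lay at 9.75, 9.25 and 8.45 on control arrays 1 to 3 and between 6.68 and 7.57 on the other 7 arrays. Its difference was -1.31 ± 0.49 (adjusted p = 0.485), with the same high arrays as Adipoq. Klf5, an early activator of fat-cell formation, differed in the other direction, by 0.33 ± 0.10 (adjusted p = 0.452). The 13 measured inhibitors of fat-cell formation had a median difference of -0.17, with Gata2, which restrains Pparg, at -0.32 ± 0.11 and Id2, an inhibitor of basic helix-loop-helix factors, at 0.42 ± 0.16. Dlk1, the preadipocyte factor Pref-1, differed by -0.28 ± 0.14.

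Genes of fatty acid and triglyceride synthesis averaged higher in BA cells, opposite to Adipoq and Lpl. Of 16 measured, 11 were higher, where 62.1% of all genes averaged lower, with a median difference of 0.23. At an unadjusted p under 0.05 there were 3 higher and 0 lower, against 4.13% and 5.27% of all genes. The 3 were the desaturase genes Scd1 (0.62 ± 0.19) and Scd2 (1.10 ± 0.49) and the fatty acid elongase gene Elovl6 (1.02 ± 0.35), with limma adjusted p between 0.452 and 0.529. Scd1 lay between 9.03 and 9.84 on control and between 9.61 and 10.40 on BA arrays.

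In uptake and transport, Fabp5, the carrier related to Fabp4, averaged 6.46 ± 0.69 in control and 8.33 ± 0.77 in BA cells (SD, n = 5 each). Its BA values of 9.35, 8.24, 8.42, 7.20 and 8.44 lay above all control values (5.72 to 7.26) but for BA 4. The difference of 1.87 ± 0.41 did not pass over all genes (limma, adjusted p = 0.384), and Fabp4 differed by 0.12. Vldlr, a receptor that takes up lipoproteins, differed by 0.76 ± 0.27, and Angptl8, an inhibitor of lipoprotein lipase, by -0.23 ± 0.11. Over the 19 genes of this list the median difference was -0.17 and 10 were lower, against 62.1% of all genes.

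Of the 13 lipid droplet coat genes measured, 9 were lower, against 62.1% of all genes, with a median difference of -0.02. Cidec, which enlarges the droplet of white fat cells, lay between 5.89 and 6.15 on control and between 5.63 and 5.83 on BA arrays. The groups did not overlap, as for 1 of the 13 and 1.1% of all genes with BA lower. The difference was -0.29 ± 0.09 (limma, adjusted p = 0.452). These values lay near the array medians of 5.91 to 6.02. With no detection call, they cannot be told from background signal. Hilpda, an inhibitor of droplet lipolysis, differed by 0.41 ± 0.25 and Cideb by -0.14 ± 0.10. Among the 6 lipolysis genes 4 were lower, against the same share of all genes, with a median of -0.15. Lipe, the hormone-sensitive lipase, differed by -0.13 ± 0.10, Pnpla3 by -0.18 ± 0.12 and Mgll, the monoglyceride lipase, by -0.70 ± 0.59. The 6 brown and beige fat genes had a median of -0.11, with Tmem26 at -0.24 ± 0.16, Cox7a1 at 0.33 ± 0.27 and Ucp1, the uncoupling protein of brown fat, at -0.12 ± 0.11, and none of the lipolysis and brown fat genes had an unadjusted p under 0.05. Of the 5 insulin response genes 4 were higher, and Cav1, the caveolae protein, differed by -0.98 ± 0.31 (adjusted p = 0.471), while the insulin receptor gene Insr (0.43 ± 0.42) and its substrate gene Irs1 (0.78 ± 0.40) averaged higher.

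Of the 12 secreted fat-cell products measured, 7 were lower, against 62.1% of all genes. C1qtnf3, a relative of adiponectin, ran against Adipoq, with control arrays between 6.21 and 6.98 and BA arrays between 6.99 and 8.14. The groups did not overlap, as for 1 of the 12 and 0.567% of all genes with BA higher. The difference was 0.96 ± 0.24 (limma, adjusted p = 0.384). C1qtnf7, of the same family, differed by -0.58 ± 0.21.

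**Figure D4:**
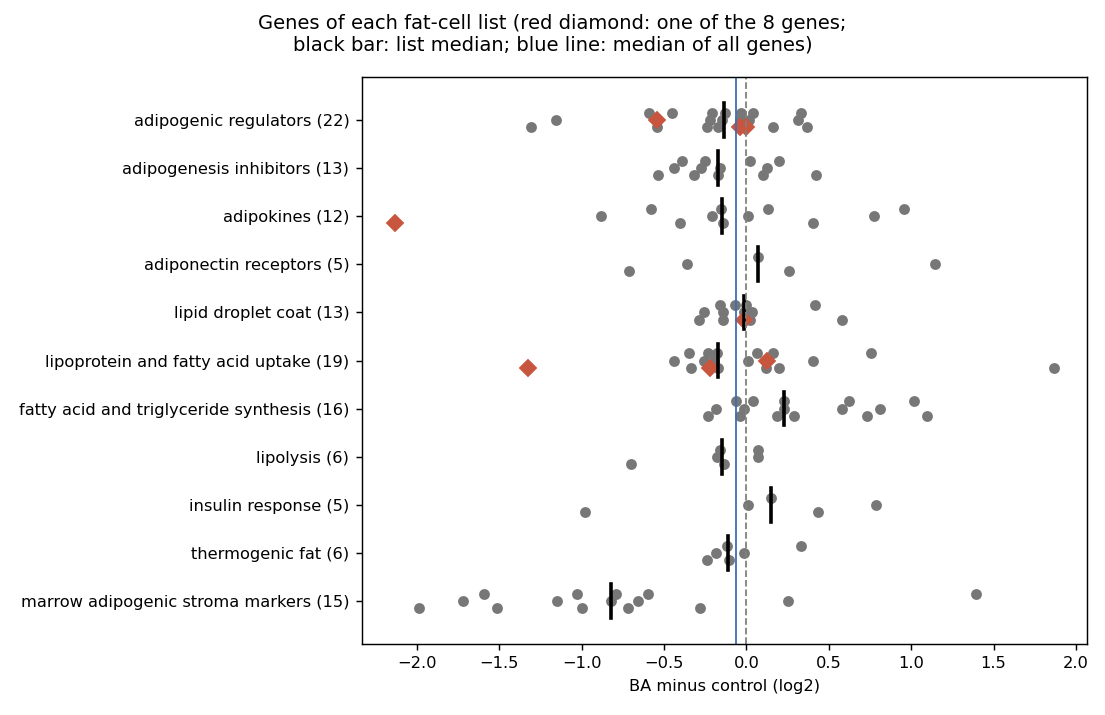
Differences between BA and control cells (x axis, log2) for each measured gene of 11 lists, with the number measured in brackets; red diamonds are genes among the 8, black bars the list medians and the blue line the median of all genes at -0.06. Adipoq lies at the far left of the secreted products, and the marrow stroma list has the lowest median, -0.82.

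Markers of other cells describe what the sorted samples held. The means of the 8 measured osteoblast and of the 9 cartilage markers lay between 9.46 and 11.25 on every array, so the samples carried bone and cartilage RNA. Bglap, Runx2 and Spp1 of the osteoblast list were not matched to a measured gene. In BA cells 5 of the 8 osteoblast markers averaged lower (median difference -0.06) and 8 of the 9 cartilage markers higher (median 0.14), where 62.1% of all genes averaged lower. At an unadjusted limma p under 0.05, 3 osteoblast markers were lower and 0 higher, against 5.27% and 4.13% of all genes. They were Col1a2 (-1.16 ± 0.31), Col1a1 (-1.25 ± 0.34) and Dmp1 (-0.42 ± 0.17), and 0 passed over all genes. Dmp1 lay between 5.62 and 6.75, near the array medians of 5.91 to 6.02. With no detection call, its values cannot be told from background signal. The mean of 13 macrophage markers lay between 5.84 and 6.23 on control and between 5.98 and 7.04 on BA arrays, with 9 of 13 higher in BA cells. The 10 pan-haematopoietic markers gave 5.76 to 6.74 and 5.99 to 7.87, with 7 of 10 higher. The 10 neutrophil markers were all higher on average, at array means of 6.58 to 8.61 and 7.38 to 10.07. BA array 5 was the highest in each of these 3 lists, with Ptprc (CD45) at 9.29 against 5.54 to 5.90 elsewhere. The neutrophil mean also lay above every control array on BA arrays 1 (8.96) and 4 (8.74). At an unadjusted limma p under 0.05, 1 macrophage, 0 pan-haematopoietic and 2 neutrophil markers were higher, against 4.13% of all genes. In these lists 0 were lower, against 5.27%. The higher ones were Lyz2 (2.05 ± 0.79), Cxcr2 (2.65 ± 0.96) and S100a8 (0.94 ± 0.40), and 0 passed over all genes. The 12 endothelial markers lay between 5.63 and 5.94 on control and between 5.53 and 5.75 on BA arrays, and 9 skeletal muscle markers between 6.51 and 6.77 and between 6.26 and 6.49. The part of these cell markers in the differences of the 8 genes was not tested. Without both arrays numbered 5, which carried the highest Pecam1 and Ptprc, Adipoq differed by -2.27 ± 0.54 (limma, adjusted p = 0.549), Lpl by -1.84 ± 0.68 and Pparg by -0.61 ± 0.26.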

How the data were processed

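RNA was amplified, biotin-labelled and hybridised to Affymetrix Gene ST 1.0 arrays, per the labels' protocols. The deposited values are on a log2 scale, made by the authors with GCRMA, per the submitters' processing notes, in a version that the labels do not name; log base 2 was inferred from that method and values of 1.21 to 13.7. GCRMA pulls dim probe sets to a floor, which compresses low differences. No scanner files or detection calls were used, and having 10 arrays limits the precision.

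Probe sets were named from the platform annotation: 21789 of 35557 had 1 symbol, 1621 several and 12147 none. The probe set with the highest mean stood for its gene. The comparison used limma 3.58.1 (R 4.3.3), two-sided, with Benjamini-Hochberg adjustment over 19938 genes, on scripts tested on simulated data. Correlations used exact permutation of 14400 orders within groups. The genes and lists were chosen with earlier results of these data known. Of 213 list entries in 18 lists, 203 matched a measured gene by symbol; no test of a list was made. The rule for named genes took the 8, the 3 of each list with the smallest p (for the marker lists of other cells, counts and few genes are given) and the 5 most like Adipoq by Pearson's r, predicted genes, clones, olfactory and vomeronasal receptors and small RNA genes left out. A small p makes groups that do not overlap more likely, so the shares of all genes are no background for genes named by it. Ptprc, Pecam1, Xist, Kitl, Gas6 and Igfbp4 were named after their values were seen. The alternatives were the replicate block, quantile normalization, median centring, a filter on level, trend and robust settings, array weights, the mean of probe sets, Xist class as a block and leaving out each array; leaving out both arrays numbered 5 and the Xist class comparison were added after the data were seen.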

Additional observations from a re-analysis of the deposited data

Results flagged for a closer look

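Of 96 sets of 5 values (1 gene in 1 group) checked, 7 had an array that stood far from the others by Dixon's criterion. Chance gives about 1 in 20 for sets picked without sight of their values. Ptprc and Pecam1, both among the 7, were added after their values were seen, so the count cannot be set against that rate. None of these 7 was a value of the 8 genes of fat-cell formation. Ptprc stood at 9.29 on BA array 5 and Pecam1 at 6.94 on control array 5. On BA array 4, Lipe stood at 5.80 and Abca9 at 6.93, above the other BA arrays. On BA array 2, Klf5 stood at 7.03, below the others, and Pnpla3 at 6.86, above them. Id2 stood at 9.44 on BA array 1, below the others.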

How the results depend on the processing

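Under all 19 alternatives 0 of the 8 genes passed over all genes in limma. Adipoq, Lpl and Pparg stayed lower in BA cells in each alternative that held them; Pparg dropped out of the one on genes above the median level. The other 5 changed sign in at least 1 setting. Cebpa was 0.12 with Xist class as a block. Cebpb was 0.032 with median centring, 0.036 with array weights and 0.11 without both arrays numbered 5. Plin1 was 0.016 with median centring. Leaving out 1 array at a time gave -0.25 to 0.21 for Cebpa, -0.075 to 0.075 for Cebpb, -0.45 to 0.073 for Apoe, -0.0215 to 0.35 for Fabp4 and -0.0655 to 0.042 for Plin1. Of the 8 genes, 2 had an unadjusted p under 0.05 with the replicate block (Adipoq and Pparg), 2 with array weights (Adipoq and Lpl), 3 without both arrays numbered 5 (Adipoq, Lpl and Pparg), and 1 to 3 when 1 array was left out. Without control replicate 5 they were the same 3, and without BA replicate 1 Adipoq and Lpl. The count of all genes past the adjusted threshold was 1. It was 0 with the replicate block, on genes above the median level and without both arrays numbered 5, 2 with Xist class as a block, and 0 to 13 with 1 array left out, with 13 without BA replicate 4, 2 without control replicate 4 or BA replicate 1, and 0 without control replicates 2 or 5 or BA replicates 3 or 5. Deviations from the group means correlated at -0.097 to 0.112 between same-numbered mice of the 2 groups, and at up to 0.0999 between differently numbered ones. Such values cannot tell whether the replicate numbers pair the mice. The causes were not tested. The spread within groups limits Lpl most, with an interval of -3.05 to 0.40.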
